A study of Mus musculus with 20 samples.

Results

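Axonal cell adhesion molecules are membrane proteins with which an axon holds on to other axons, to glia and to its targets. Here they are 9 genes, L1cam, Ncam1, Ncam2, Cdh2, Cntn1, Cntn2, Nrcam, Nfasc and Chl1, and every array probe that the annotation assigns to any of them was used. These are 9 of 30222 gene names and 16 of 39429 probes on the array. The spot filter, which asks for a foreground signal of at least 2 times the local background and no mark of a non-uniform spot in any of the 20 samples, kept 10 of the 16 probes, from 7 of the 9 genes, and 11952 of all probes.

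The study asked how the temporal pattern of action potentials changes gene expression in sensory neurons. Dorsal root ganglion neurons of mouse strain NIH Swiss, taken at embryonic day 13.5, were grown in multi-compartment chambers in which division of non-neuronal cells had been inhibited, and RNA came from pooled cultures. Axons were stimulated with biphasic pulses of 6 V and 0.2 ms, either each minute with a burst of 18 action potentials (18/1, an interval of 1 min) or with bursts of 90 at an interval of 5 min (90/5), for 2 hr or for 5 hr, and the controls were unstimulated cultures of the same kind. Each of the 5 conditions has 4 samples, and both patterns deliver the same mean number of action potentials per unit of time.

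The 20 samples were labelled with Cy3 or Cy5 and shared 10 arrays, numbered 1 to 10 in the text, on 3 slides. On slide 1 were the unstimulated cultures (arrays 1 and 2) and 18/1 2 hr (arrays 3 and 4), on slide 2 18/1 5 hr (arrays 5 and 6) and 90/5 2 hr (arrays 7 and 8), and on slide 3 90/5 5 hr (arrays 9 and 10). For every comparison except 18/1 2 hr against unstimulated and 90/5 2 hr against 18/1 5 hr, slide and condition cannot be told apart. Each condition has 2 samples of each colour. The methods call the replicates biological, and the labels do not say what else separates them. The samples of slide 2 are named by array and colour (values in the order Cy3, Cy5) and the others by replicate number. The number of samples limits the precision of each value.

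Slide 2 stood apart before any comparison was made. The number of spots marked as non-uniform was between 6 and 36 in the samples of slide 1 and between 37 and 85 on slide 3, but 11226, 14642, 5319 and 10718 in the 18/1 5 hr samples. In the 90/5 2 hr samples it was 45 and 139 on array 7 and 3138 and 6476 on array 8. The signal also depended on the base composition of the probe in a different way on arrays 5, 6 and 8. For each 10 points more G and C in the probe, the log2 signal changed by -0.42, -0.43, -0.51 and -0.54 in the 18/1 5 hr samples and by -0.33 and -0.31 on array 8, against 0.05 and 0.07 on array 7, 0.14 to 0.19 on slide 1 and 0.21 to 0.38 on slide 3. For the tested member probes, values with this trend taken out are given where a call changed.

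All 16 markers of sensory neurons, among them the peptide gene Calca, were well above background in all 20 samples. A gene or probe is said to be called when limma gives it an adjusted p under 0.05. Of the 14 sensory neuron markers that could be tested, 1 was called higher and 1 lower at 18/1 5 hr, with a median of -0.32. The higher one was Tac1 (log2 fold change 1.08, limma adjusted p = 0.0336). The summed signal of the 16 was between 564000 and 852000 in the 18/1 5 hr samples and between 733000 and 789000 in the unstimulated ones. The brightest of them, Calca, had a mean log2 signal of 16.18, near the highest raw signal on slides 1 and 2 (65526 and 65527). Bright markers near this limit weigh most in the sum, so it can show little of a change. The growth protocol in the labels speaks of spinal cords, and 0 of 6 spinal cord neuron markers were well above background in all samples. Mnx1 and Gad2 were so in 4 of 20 samples each, Gad1 in 6, Chat in 7, Pax2 in 13 and Slc32a1 in 17. In unstimulated cultures Slc32a1 and Pax2 were so in all 4 samples, Chat in 2 and the other 3 in 0.

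RNA of other cells was also present. Of 6 fibroblast markers 5 were well above background throughout, and the summed fibroblast signal was 17400, 39400, 33800 and 44600 in the unstimulated samples and 66900, 69600, 76500 and 75200 at 18/1 5 hr. It was 28800 and 21300 on array 7 and 79900 and 81100 on array 8, and it was high on the same arrays on which the trend with base composition was negative. Col1a1 was the fibroblast marker called of 4 tested, higher at 18/1 5 hr by 1.79 on the log2 scale (limma adjusted p = 0.0081). Of 10 Schwann cell markers 5 were well above background in all samples, S100b among them, and the glial receptor gene Erbb3 in 0 of 20. Their summed signal was between 50500 and 107000 at 18/1 5 hr and between 78400 and 88100 in unstimulated cultures. S100b, the brightest of them, had a mean log2 signal of 16.01, near the same limit as Calca. The counts of markers well above background in all samples were 3 of 3 for macrophages, 1 of 3 for astrocytes, 0 of 2 for endothelium and 0 of 2 for dividing cells. The endothelial Pecam1 was lower at 18/1 5 hr (-1.36, limma adjusted p = 0.000854). It was well above background in 15 of 20 samples, so the size of this difference is not exact.

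Some of these signals also moved at 18/1 5 hr. The astrocyte marker Aqp4 had a mean of 8.05 on the log2 scale over the 20 samples, near that of Aldh1l1 (8.02). Aqp4 was at 7.11 to 7.49 in unstimulated cultures, at 10.46, 10.98, 8.92 and 10.49 at 18/1 5 hr, at 7.59 and 8.11 on array 7 and at 8.85 and 9.66 on array 8. The summed astrocyte signal was 550, 664, 530 and 754 in unstimulated cultures, 1990, 2740, 822 and 1740 at 18/1 5 hr, 609 and 619 on array 7 and 875 and 1160 on array 8. That of the spinal cord neuron markers was 815, 781, 734 and 745 in unstimulated cultures, 1980, 2380, 979 and 1110 at 18/1 5 hr, 704 and 641 on array 7, 849 and 939 on array 8 and 1000 to 1370 at 90/5 5 hr. The endothelial sum was 382 to 522 in unstimulated cultures, 193 to 223 at 18/1 5 hr, 361 and 365 on array 7 and 212 and 187 on array 8. That of the dividing cell markers was 290 to 313 in unstimulated cultures and 201 to 227 at 18/1 5 hr. It was 245 and 252 on array 7 and 256 and 203 on array 8. In pooled cultures, fewer cells of a type and less RNA per cell cannot be told apart, and the part these cells have in the results below was not tested.

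L1cam, Nrcam, Nfasc and Chl1 form the L1 family, transmembrane proteins built of immunoglobulin and fibronectin type III domains whose cytoplasmic tails bind ankyrin. They guide and bundle growing axons, and Nfasc and Nrcam later help to build axon initial segments and nodes of Ranvier. Ncam1 and Ncam2 bind like molecules on a facing membrane, contactins are anchored by a lipid and act in complexes with other surface proteins, and Cdh2, N-cadherin, binds in a calcium-dependent way and is tied to actin through catenins.

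Each probe is a strand of 60 bases, and the results below turn on 6 of them, shown 5′ to 3′ as the array file gives them, with G and C in capitals because the signal on arrays 5, 6 and 8 moved with their share in another direction than on the rest. The probes of L1cam (chrX:71100374-71100433, minus strand, build mm9), Ncam1 probe 2 (chr9:49351182-49351241, minus strand) and Chl1 probe 2 (chr6:103667565-103667624, plus strand) are given whole. Only the first 30 bases are given for Ncam1 probe 1 (chr9:49310350-49310379, minus strand), Nrcam (chr12:45699758-45699787, plus strand) and Chl1 probe 1 (chr6:103682933-103682962, plus strand).
L1cam: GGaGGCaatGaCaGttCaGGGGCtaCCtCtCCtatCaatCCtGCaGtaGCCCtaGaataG
Ncam1 probe 2: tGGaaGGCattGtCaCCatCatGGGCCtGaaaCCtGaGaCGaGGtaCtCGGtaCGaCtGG
Chl1 probe 2: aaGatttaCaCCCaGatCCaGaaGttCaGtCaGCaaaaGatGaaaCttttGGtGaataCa
Ncam1 probe 1: aCtttttaCtGaGtGaaaCatCaaCaCCaC
Nrcam: GCataCGtttttGttCaGaGtGGGGttttt
Chl1 probe 1: GGtGtttGtattGtGCttatGGCtatGtat
The probes that gave lower signals at 18/1 5 hr hold 31 (L1cam) and 33 (Ncam1 probe 2) G or C bases of 60. Those that gave higher signals hold 21 each (Nrcam and Chl1 probe 1), and the other probes shown, which were not called, hold 22 each (Ncam1 probe 1 and Chl1 probe 2).

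Nr4a1 and Rgs2, both known to respond to activity, were higher in all 4 stimulated conditions. Nr4a1, an immediate early gene, exceeded unstimulated cultures on the log2 scale by 4.53 (18/1 2 hr), 4.43 (18/1 5 hr), 4.75 (90/5 2 hr) and 5.5 (90/5 5 hr). Rgs2, a regulator of G protein signalling, exceeded them by 3.27, 3.63, 3.45 and 3.97 in the same order, and all 8 differences were called, with every stimulated sample above every unstimulated one.

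Member probes passed the test at 18/1 5 hr and in none of the other 3 comparisons with unstimulated neurons. At 18/1 5 hr 4 of 10 member probes were called by limma, with Nrcam and Chl1 probe 1 higher and L1cam and Ncam1 probe 2 lower, directions that were the same in every normalization tried. Of all probes tested, 45.1% were called in the same comparison, so the members' share is near the background. Without Cntn1, which was saturated there, their median log2 fold change was -0.27, and that of all probes -0.26, a shift that became -0.83 when samples were centred on their medians only. In that setting the share of called probes that were higher went from 32% to 8.23%. The methods' t-test, in a simplified form, called 3 of the 10 member probes and 49.7% of all probes.

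None of the 10 member probes was called by limma at 18/1 2 hr, where 0.0167% of all probes were. At an unadjusted p under 0.05 the count was 0 (0.837% of all probes) and by the methods' t-test 0 (2.11%). At 90/5 2 hr the limma count was 0 with a background of 6.18%, the unadjusted count was 3 (Ncam1 probe 2 and both probes of Cdh2) where 22.5% of all probes met that limit, and the methods' t-test gave 3 (20.3%). At 90/5 5 hr limma called 0 with a background of 0.0586%, the unadjusted count was 0 (3.36%) and the methods' t-test gave 1 (5.25%). In the same order (18/1 2 hr, 90/5 2 hr, 90/5 5 hr) the median of the log2 fold changes, without Cntn1 at 90/5 2 hr, was -0.32, -0.19 and -0.08, against 0, -0.09 and -0.01 over all probes.

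**Figure D1:**
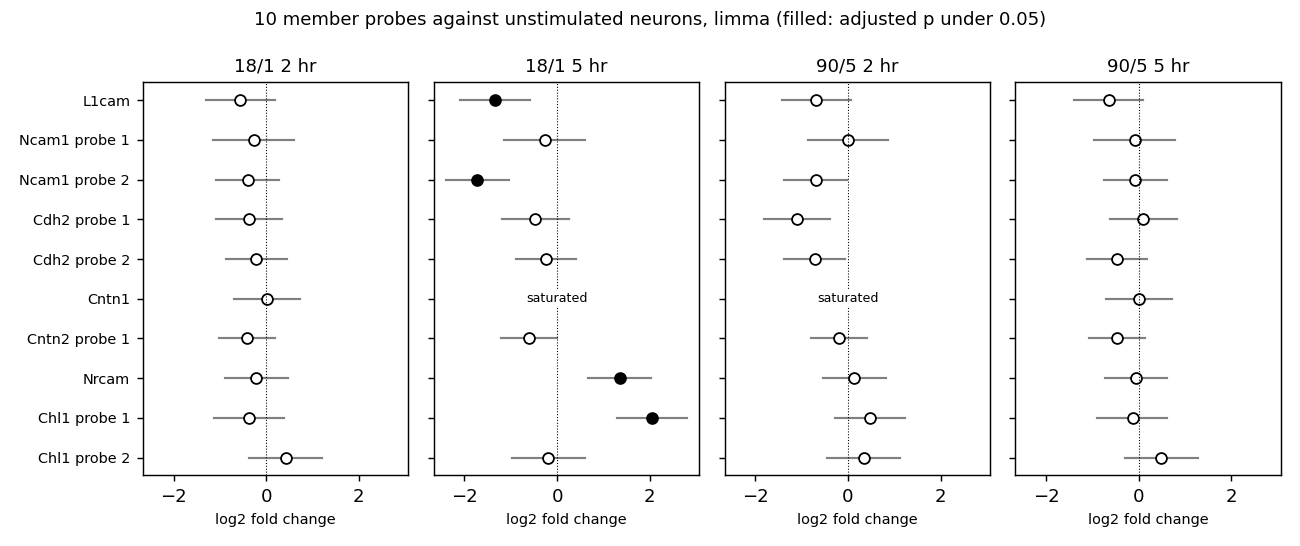
Log2 fold change (x axis) of the 10 tested member probes in each stimulated condition against unstimulated neurons, with 95% intervals from limma. Filled points have an adjusted p under 0.05, as L1cam, Ncam1 probe 2, Nrcam and Chl1 probe 1 do at 18/1 5 hr, and Cntn1 has no fold where its spots were saturated in all samples of a condition.

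L1cam, which promotes axon growth and holds axons in bundles, had a normalized log2 signal of 10.13, 10.41, 10.26 and 9.96 in unstimulated replicates 1 to 4. At 18/1 5 hr it was 8.81 and 8.81 on array 5 and 8.83 and 8.96 on array 6. The groups do not overlap, and the 18/1 5 hr samples are the closest together of the 5 groups, with an SD of 0.07. Signals were 9.09, 9.55, 10.21 and 9.68 at 18/1 2 hr, 9.67, 10.49, 8.99 and 8.90 at 90/5 2 hr, and 9.5, 9.76, 9.14 and 9.75 at 90/5 5 hr. On array 8 the values of 90/5 2 hr lie near those of 18/1 5 hr, and on array 7 they lie within or above the range of the unstimulated samples and 18/1 2 hr. The means fall in the order unstimulated 10.19, 18/1 2 hr 9.63, 90/5 5 hr 9.54, 90/5 2 hr 9.51 and 18/1 5 hr 8.85, and the middle 3 differ by less than their SDs of 0.46, 0.29 and 0.74.

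The fall of L1cam at 18/1 5 hr was -1.33 on the log2 scale (SE 0.36, limma adjusted p = 0.0053), a 2.52-fold difference. It was -0.73 and no longer called with the trend on base composition removed, and -1.25 and no longer called without array 1. Against unstimulated neurons the log2 fold change was -0.56 at 18/1 2 hr, -0.68 at 90/5 2 hr and -0.65 at 90/5 5 hr, none of them called. Without array 7, which leaves array 8 alone for 90/5 2 hr, the value there was -1.24 and was called. With arrays weighted by quality L1cam was called at 18/1 2 hr (-0.8) and 90/5 5 hr (-0.56), where 14.6% and 25.4% of all probes then were, and the methods' t-test also called it at 90/5 5 hr.

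Nrcam, a partner of ankyrin and Nfasc at nodes, showed the opposite pattern. Its signal was 14.17, 13.86, 13.91 and 13.83 in unstimulated replicates 1 to 4, and 14.88 and 14.79 on array 5 and 16.08 and 15.41 on array 6 at 18/1 5 hr. All 4 values at 18/1 5 hr exceed all unstimulated ones, and 3 of the 4 come from saturated spots. The other values were 13.97, 13.73, 13.72 and 13.50 at 18/1 2 hr, 13.89, 13.25, 14.46 and 14.73 at 90/5 2 hr, and 14.14, 13.70, 13.89 and 13.82 at 90/5 5 hr. The means run from 15.29 at 18/1 5 hr through 14.08 at 90/5 2 hr, 13.94 in unstimulated cultures and 13.89 at 90/5 5 hr to 13.73 at 18/1 2 hr, and the lower 4 lie within 1 SD of 90/5 2 hr (0.66).

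The rise of Nrcam at 18/1 5 hr was 1.35 (SE 0.33, adjusted p = 0.00236) with 3 of 4 spots saturated, so that its size is not exact. It was 0.73 with the trend on base composition removed and 0.81 with samples centred on their medians only, and the call was lost in both settings and in the methods' t-test. Leaving saturated probes out removes this probe from the test.

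Chl1, a close homolog of L1cam, is read by a pair of probes that gave different values. Probe 1 gave 12.60, 12.40, 12.57 and 12.03 in unstimulated replicates 1 to 4, and 14.91 and 14.81 on array 5 and 13.86 and 14.21 on array 6 at 18/1 5 hr, with 2 of these 4 spots saturated. Probe 2 gave 11.39, 11.73, 11.59 and 11.09 in unstimulated cultures, and 10.94 and 10.41 on array 5 and 12.02 and 11.68 on array 6 at 18/1 5 hr. By probe 1 the groups do not overlap, while by probe 2 array 5 lies below all unstimulated values and array 6 within or above them. At 18/1 2 hr probe 1 gave 12.46, 12.08, 12.25 and 11.32 and probe 2 gave 12.20, 12.16, 11.73 and 11.39. At 90/5 2 hr probe 1 gave 12.58, 12.67, 13.13 and 13.14 and probe 2 gave 12.47, 12.25, 11.31 and 11.12. On array 8, where probe 1 was highest in this condition, probe 2 was lowest. At 90/5 5 hr the signals were 12.41, 11.97, 12.03 and 12.66 for probe 1 and 12.33, 11.63, 11.74 and 12.07 for probe 2.

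The rise of Chl1 probe 1 at 18/1 5 hr was 2.04 (SE 0.36, limma adjusted p = 0.000181), or 4.12-fold with 2 of 4 spots saturated. In the main fit it was the largest difference from unstimulated neurons among member probes with a fold, but saturation limits its size and that of Nrcam. With samples centred on their medians only it was 1.88, and the fall of Ncam1 probe 2 was larger (-2.33). The rise of Chl1 probe 1 was called in all 44 alternative fits that could be made, from 1.43 with the trend on base composition removed to 2.46. Leaving saturated probes out removes this probe from the test. For probe 2 the difference was -0.19 (95% interval -0.98 to 0.60), although both probes have a nearly equal share of G and C (35% and 36.7%). The means of probe 1 run from 14.45 at 18/1 5 hr through 12.88 at 90/5 2 hr, 12.40 in unstimulated cultures and 12.27 at 90/5 5 hr to 12.03 at 18/1 2 hr, and of the lower 4 only 90/5 2 hr differs from its neighbour by more than their SDs of 0.30 and 0.26. The means of probe 2, between 11.26 at 18/1 5 hr and 11.94 at 90/5 5 hr, differ by less than the SD of 0.73 at 18/1 5 hr.

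**Figure D2:**
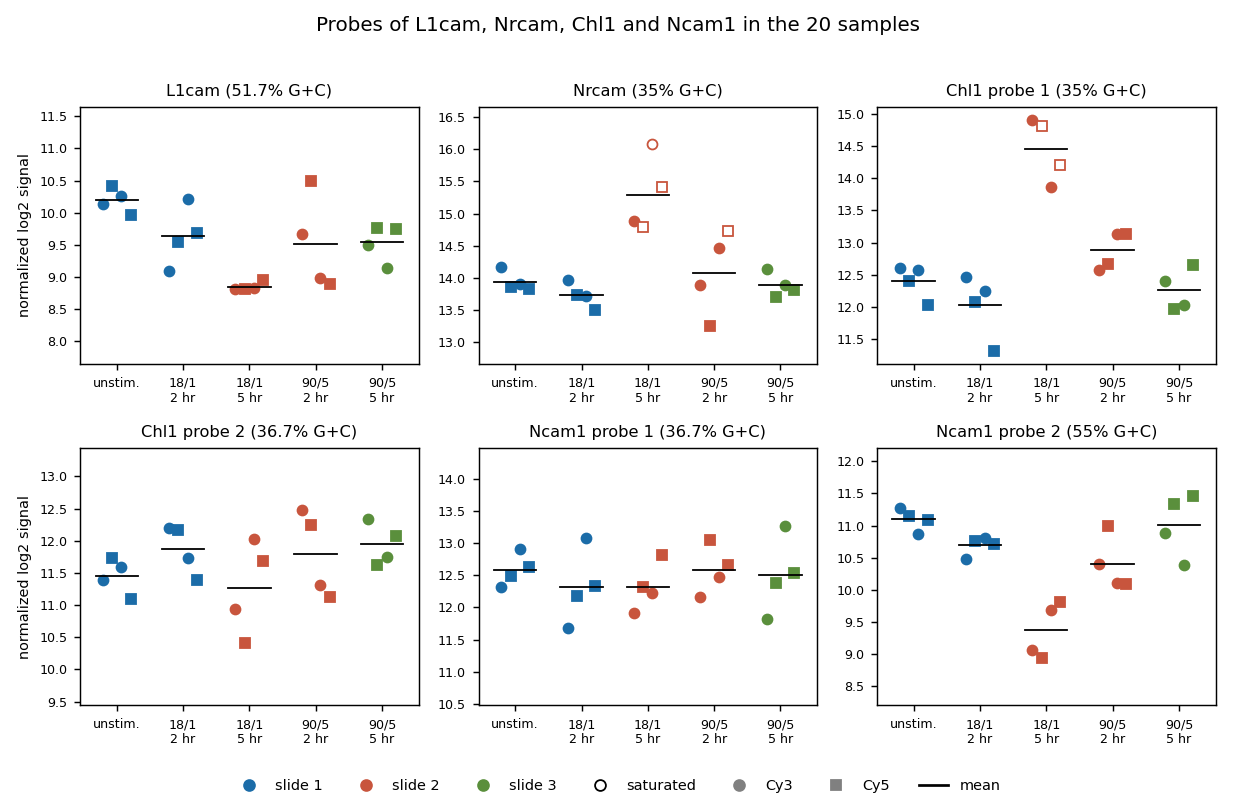
Normalized log2 signal (y axis) of the probes of L1cam, Nrcam, Chl1 and Ncam1 in each of the 20 samples, by condition, with the slide as colour, the dye as symbol, open symbols for saturated spots and the mean as a line. At 18/1 5 hr L1cam (8.81 to 8.96) and Ncam1 probe 2 (8.95 to 9.81) lie below, and Nrcam (14.79 to 16.08) and Chl1 probe 1 (13.86 to 14.91) above, all unstimulated samples.

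Nfasc, an adhesion molecule of the initial segment, had 1 non-uniform spot at 18/1 5 hr and was tested only in the fit of the 23824 probes that met the filter throughout 1 condition or more (the wider fit). Its signal was 11.94, 12.19, 11.52 and 12.02 in unstimulated cultures and 11.12, 11.23, 11.47 and 11.15 at 18/1 2 hr. These groups do not overlap, but the log2 fold change of -0.68 (SE 0.41) was not called, in a comparison in which 0.0168% of the probes of this wider fit were. Against the same controls Nfasc was at -0.13 (18/1 5 hr), -0.54 (90/5 2 hr) and 0.34 (90/5 5 hr), none called, with backgrounds of 37.4%, 4.39% and 0.113%. The 14 member probes of this fit include any that is bright in 1 condition and dim in the rest, so their counts support nothing by themselves.

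Ncam1, which binds axons to each other and to muscle and is modified by polysialic acid, has 3 probes. Probe 2 gave 11.28, 11.15, 10.87 and 11.08 in unstimulated replicates 1 to 4, and 9.07 and 8.95 on array 5 and 9.69 and 9.81 on array 6 at 18/1 5 hr. Probe 1 gave 12.31, 12.49, 12.91 and 12.62 and then 11.91, 12.32, 12.22 and 12.82 in the same samples. By probe 2 the groups are far apart, and by probe 1 they overlap. Probe 2 was between 10.48 and 10.81 at 18/1 2 hr, at 10.41 and 11 on array 7 and 10.11 and 10.09 on array 8 at 90/5 2 hr, and between 10.38 and 11.46 at 90/5 5 hr. Its means run from 11.10 in unstimulated cultures through 11.02 at 90/5 5 hr, 10.69 at 18/1 2 hr and 10.40 at 90/5 2 hr to 9.38 at 18/1 5 hr, and each of the first 4 differs from its neighbour by less than 0.49, the SD at 90/5 5 hr.

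The fall of Ncam1 probe 2 at 18/1 5 hr was -1.72 (SE 0.33, limma adjusted p = 0.000339), a 3.29-fold difference, and it was called in all 44 alternative fits, from -2.33 to -0.92. The smallest value is that with the trend on base composition removed. For probe 1 the log2 fold change was -0.27 (95% interval -1.14 to 0.61), and for probe 3, which had 2 non-uniform spots on slide 2 and was tested in the wider fit, it was -0.24 (95% interval -0.95 to 0.47). The intervals of probes 1 and 2 overlap in part (that of probe 2 is -2.4 to -1.04), the difference between probes was not tested, and the probes hold 36.7%, 55% and 41.7% G and C (probes 1 to 3). The array file does not say which splice forms each of them reads. At 90/5 2 hr the value of probe 2 was -0.69, not called, and -1 and called without array 7.

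Ncam2, a relative of Ncam1 known from olfactory axons, gave dim signals. Its probe 3 was not well above background in any of the 20 samples, and probes 1 and 2 were in 16 of 20 each. The normalized log2 signal of probe 1 was between 6.83 and 7.81 and that of probe 2 between 6.44 and 7.66 over all samples. Probe 2 entered the wider fit and was called in none of the 4 comparisons with unstimulated cultures, in which its log2 fold change was 0.05 (18/1 2 hr), -0.39 (18/1 5 hr), 0.30 (90/5 2 hr) and 0.06 (90/5 5 hr).

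Cntn1, a contactin of axons and of the regions beside nodes, was bright throughout. Its probe was saturated in all 8 samples of slide 2, so that no fold can be given for 18/1 5 hr or 90/5 2 hr. The signal was 16.02, 15.90, 15.87 and 15.71 in unstimulated cultures, 15.68, 16.17, 16.00 and 15.73 at 18/1 2 hr and 15.91, 15.91, 15.41 and 16.26 at 90/5 5 hr. These groups overlap, and the log2 fold changes were 0.02 (95% interval -0.69 to 0.73) at 18/1 2 hr and 0 (95% interval -0.71 to 0.71) at 90/5 5 hr.

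Cntn2, also named TAG-1, a contactin of early growing axons, has probes of 35% and 51.7% G and C. Probe 1 gave 8.62, 9.30, 8.72 and 9.16 in unstimulated cultures and 8, 8.06, 8.62 and 8.70 at 18/1 5 hr, where array 5 was lowest. The log2 fold change of -0.61 (SE 0.29, adjusted p = 0.0923) was not called, although the unadjusted p was under 0.05. It was -1.22 and called with the trend on base composition removed, and -0.97 and called with samples centred on their medians only. It was also called without array 6 (-0.92), without its Cy3 sample alone (-0.70) and without array 8 (-0.61). Group means of probe 1 lie between 8.34 at 18/1 5 hr and 8.95 in unstimulated cultures, and neighbours in their order differ by less than their SDs of 0.29 to 0.38.

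Probe 2 of Cntn2 met the filter throughout 90/5 5 hr and was not well above background in any 18/1 5 hr sample. It gave 7.42, 7.45, 7.35 and 7.27 in unstimulated cultures, 7.38, 7.55, 7.73 and 7.56 at 90/5 5 hr and 6.56, 6.46, 6.78 and 6.81 at 18/1 5 hr. At 90/5 2 hr it gave 7.44 and 7.61 on array 7 and 6.60 and 6.49 on array 8. In the wider fit it was at least 1.5-fold lower at 18/1 5 hr than in unstimulated cultures (adjusted p = 0.0298), where 37.4% of all probes were called, and at least 1.45-fold lower than at 18/1 2 hr (adjusted p = 0.0424), where 36.8% were. Its test against 90/5 5 hr, the group through which it entered this fit, is not used. The probe met the filter in 1 of 4 unstimulated and 2 of 4 18/1 2 hr samples, so the other calls support nothing by themselves. These bounds set the mean of the brighter group against, per sample, the higher of the lowest signal among probes well above background and the probe's own signal.

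Cdh2 is read by a pair of probes close to each other in the gene. Probe 1 gave 13.13, 12.92, 12.83 and 12.42 in unstimulated cultures, 12.16, 11.74, 12.06 and 10.94 at 90/5 2 hr, and 12.33, 12.76, 13.45 and 13.17 at 90/5 5 hr. Probe 2 gave 12.80, 12.84, 12.43 and 12.90, then 11.94, 11.81, 12.45 and 11.90, and then 12.05, 12.15, 12.88 and 12.04 in the same samples. By probe 1 all 90/5 2 hr samples lie below all unstimulated samples and below all 90/5 5 hr samples, and by probe 2 they overlap with both groups. The means of probe 1 run from 12.93 at 90/5 5 hr through 12.82 in unstimulated cultures, 12.46 at 18/1 2 hr and 12.36 at 18/1 5 hr to 11.72 at 90/5 2 hr, and those of probe 2 from 12.74 in unstimulated cultures through 12.53, 12.51 and 12.28 at 18/1 2 hr, 18/1 5 hr and 90/5 5 hr to 12.02 at 90/5 2 hr. For probe 1 the steps from unstimulated cultures to 18/1 2 hr and from 18/1 5 hr to 90/5 2 hr exceed the SDs on both sides, and for probe 2 no step exceeds the larger of its SDs.

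Against unstimulated neurons the log2 fold change at 90/5 2 hr was -1.1 for probe 1 of Cdh2 (SE 0.35, limma adjusted p = 0.0602) and -0.72 for probe 2 (SE 0.31, adjusted p = 0.17). Neither was called, and both had an unadjusted p under 0.05. Probe 1 was called, at -1.1 to -1.33, when array 5, 6, 7 or 9 was left out, or 1 of the samples 18/1 5 hr array 5 Cy5, 90/5 2 hr array 7 Cy5, 90/5 2 hr array 8 Cy3 or 90/5 5 hr replicate 1. Probe 1 at 18/1 5 hr was -0.47, not called, and -0.93 and called with samples centred on their medians only. From 2 hr to 5 hr of 90/5 probe 1 rose by 1.2 (SE 0.35, adjusted p = 0.0332), the 1 of 10 member probes called in a comparison in which 8.23% of all probes were and 7.05% of those in the wider fit. Probe 2 was not called. The call of probe 1 was lost without any 1 of arrays 1, 2, 3, 4, 8 and 10, or of the samples 18/1 2 hr replicate 4, 90/5 2 hr array 8 Cy5 and 90/5 5 hr replicates 2, 3 and 4, with values from 0.82 (without array 10) to 1.2. It was also lost with the trend on base composition removed (1.02), with samples centred on their medians only (1.15), in the wider fit (adjusted p = 0.0692), without a filter, without saturated probes and with only the conditions compared (adjusted p = 0.152).

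**Figure D3:**
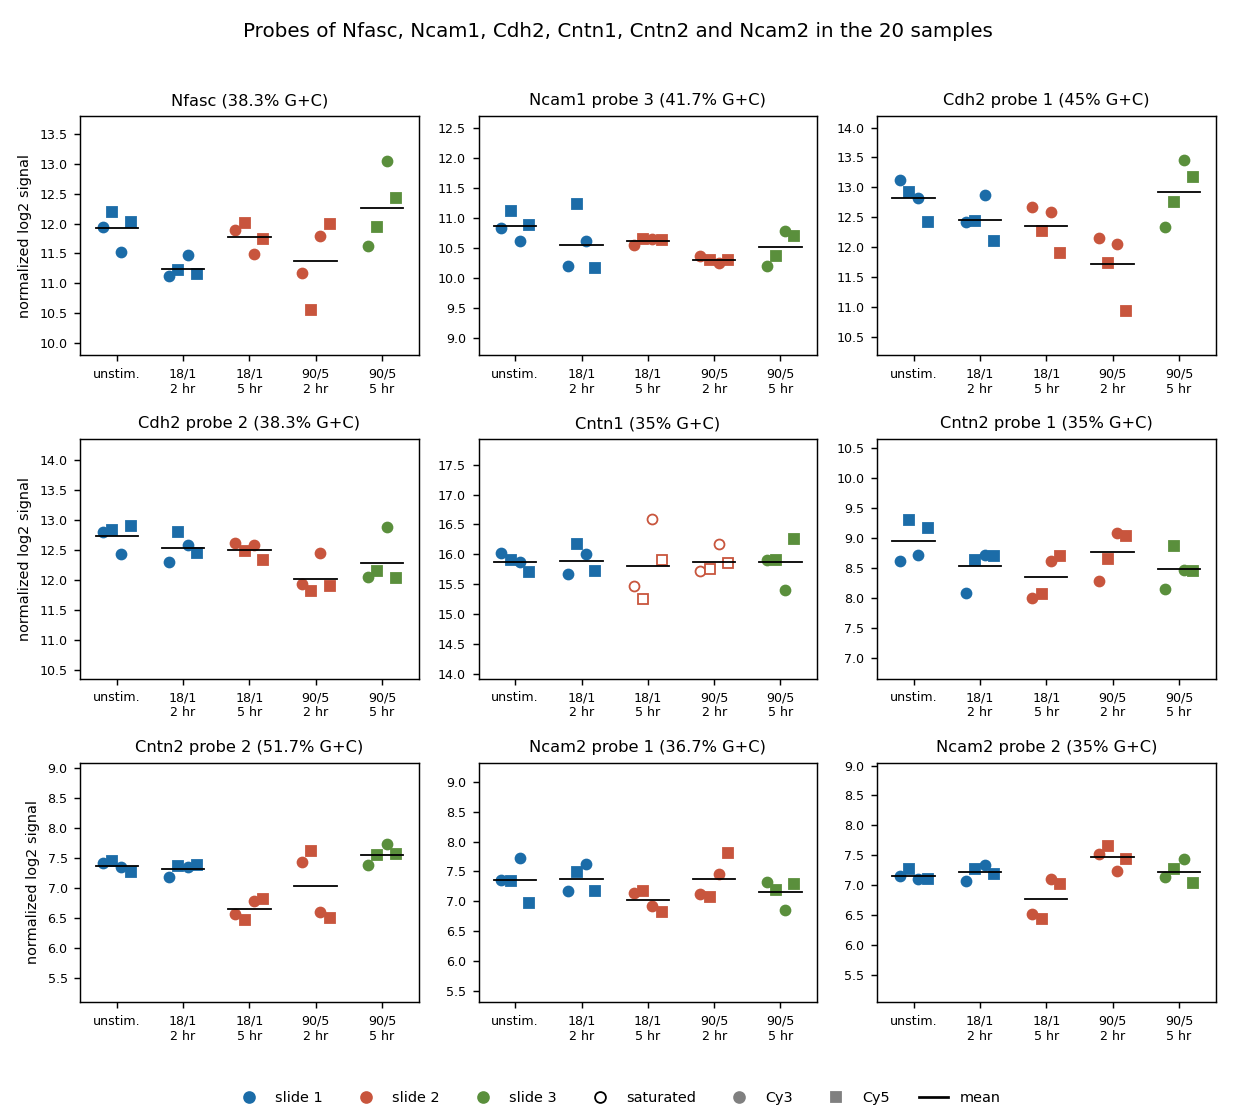
Normalized log2 signal (y axis) of the probes of Nfasc, Cdh2, Cntn1, Cntn2 and Ncam2 and of Ncam1 probe 3 in each of the 20 samples, by condition, with the slide as colour, the dye as symbol, open symbols for saturated spots (for Cntn1 all 8 of slide 2) and the mean as a line. For Cdh2 probe 1 the 90/5 2 hr samples (10.94 to 12.16) lie below all unstimulated ones (12.42 to 13.13).

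The patterns 90/5 and 18/1 were also compared at equal time, but they lay on different slides at both times, so pattern and slide cannot be told apart. At 5 hr 3 of 10 member probes differed, in a comparison in which 46.1% of all probes did and 38.3% of those in the wider fit. Ncam1 probe 2 was higher with 90/5, by 1.64 (SE 0.33, adjusted p = 0.000464), Nrcam was lower, by -1.4 (SE 0.33, adjusted p = 0.00167), and Chl1 probe 1 was lower, by -2.18 (SE 0.36, adjusted p = 8.8e-05). The 4 samples of each pattern lie apart for all 3 probes. With the trend on base composition removed (35.7% of all probes called) Ncam1 probe 2 (0.73) and Nrcam (-0.71) were no longer called, while Chl1 probe 2 (1.17) and Cntn2 probe 1 (0.83) were, so that of the 3 probes only Chl1 probe 1 (-1.49) kept its call. With samples centred on their medians only, where 58.4% of all probes were called, Nrcam was lost (-0.67), as it was in the methods' t-test, and L1cam (1.32), Cdh2 probe 1 (1.2) and Chl1 probe 2 (1.55) were added, leaving aside Cntn1, here and below, as saturated. Left-out arrays also added calls, of Chl1 probe 2 without array 6 (1.27), of L1cam without array 7 (0.68) and of Cdh2 probe 1 without array 9 (0.96) or 90/5 5 hr replicate 1 (0.83). At 2 hr limma called 0 of 10, where 4.74% of all probes and 3.3% of those in the wider fit were called. The unadjusted count was 2 (Cdh2 probe 1 and Chl1 probe 1), where 19.3% of all probes met that limit, and the methods' t-test gave 2 (16.6%). Without array 7 Nrcam was called at 2 hr, at 0.87.

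Between 2 hr and 5 hr of 18/1 the same 3 probes were called of 10, with a background of 45.1%. Ncam1 probe 2 fell by 1.31 (SE 0.33, adjusted p = 0.00294), Nrcam rose by 1.56 (SE 0.33, adjusted p = 0.000776) and Chl1 probe 1 rose by 2.42 (SE 0.36, adjusted p = 4.4e-05), each in 4 of 4 samples. The methods' t-test did not call Nrcam, and saturation at 18/1 5 hr limits the size of both rises. With the trend on base composition removed (37% of all probes called) Ncam1 probe 2 was -0.56 and no longer called, and Chl1 probe 2 (-1.05) and Cntn2 probe 1 (-0.8) were added. With samples centred on their medians only (53.7% of all probes) the 3 calls stayed and L1cam (-1.29) and Chl1 probe 2 (-1.31) were added. In the main fit L1cam was not called, at -0.78, but was when array 7, its Cy5 sample or array 8 was left out. Chl1 probe 2 was called without array 6, at -1.2. The comparisons at 5 hr and of 18/1 over time share the 18/1 5 hr samples with the comparison against unstimulated neurons, so their values are not independent.

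Conditions on the same slide can be compared without a difference of slide, and on slide 2 these were 90/5 2 hr and 18/1 5 hr. In the fit of all samples 3 of 10 member probes were called, with a background of 13.7% of all probes and 8.94% in the wider fit. Ncam1 probe 2 was higher at 90/5 2 hr, by 1.02 (SE 0.33, adjusted p = 0.0421), Nrcam lower, by -1.2 (SE 0.33, adjusted p = 0.0213), and Chl1 probe 1 lower, by -1.57 (SE 0.36, adjusted p = 0.0111). The groups do not overlap for any of the 3. When only these samples were fitted none of the 3 was called, with the same log2 fold changes, and 0 of the 11952 probes were. With the trend on base composition removed (9.87% of all probes called) Ncam1 probe 2 (0.61) and Nrcam (-0.83) lost their calls and Chl1 probe 1 (-1.2) kept it. With samples centred on their medians only, where 47.3% of all probes were called, Nrcam (-0.08) and Chl1 probe 1 (-1.08) lost them, Ncam1 probe 2 (1.63) kept it, and L1cam (1.12), Ncam1 probe 1 (1.07) and Chl1 probe 2 (1.33) were added. Ncam1 probe 2 was also not called in the wider fit, Nrcam not by the methods' t-test, and none of the 3 without a filter or with arrays weighted by quality.

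The calls on slide 2 also rested on single arrays. Without array 7 the values were 0.72, -0.69 and -1.31, and 0 member probes were called. Without array 8 the count was 5, with L1cam (1.22) and Chl1 probe 2 (1.1) added. Without array 5 Ncam1 probe 2 (0.65) and Chl1 probe 1 (-1.15) lost their calls, and without array 6 Nrcam (-0.75) did while Chl1 probe 2 (1.11) gained it. Nrcam lost its call without 90/5 5 hr replicate 4 (-1.2). Ncam1 probe 2 lost it, at 0.88 to 1.06, without any 1 of arrays 1, 2, 3, 4 and 9, or of the samples of unstimulated replicates 2, 3 and 4, 18/1 2 hr replicates 1, 2 and 4, arrays 5 and 7 and 90/5 5 hr replicate 4. Cntn2 probe 2, well above background in 1 of 4 samples at 90/5 2 hr and in none at 18/1 5 hr, was not called in the wider fit (adjusted p = 0.333).

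Base composition of the probe went along with the direction of change at 18/1 5 hr over all probes, but not for each member probe. Over the 11952 probes tested the correlation of the log2 fold change with the G and C share was -0.441, across probes of the same samples, and over the 9 member probes that were not saturated there -0.741. Probes are not independent replicates, and both values are descriptions. Of 4327 probes with 35 to 40% G and C, 27% were higher and 11.5% lower, with a median of 0.28. Of 992 probes with 50 to 55%, 3.12% were higher and 57.1% lower, with a median of -0.83, and of 1129 probes with 55% or more, 3.1% were higher and 65.3% lower, with a median of -1.06. Of the called probes, L1cam (51.7% G and C, -1.33) and Ncam1 probe 2 (55%, -1.72) lie below the medians of their ranges. Nrcam (35%, 1.35) and Chl1 probe 1 (35%, 2.04) lie above that of theirs. The uncalled probes in the range of 35 to 40%, without Cntn1, had negative values and lie below its median. They were Cntn2 probe 1 (35%, -0.61), Ncam1 probe 1 (36.7%, -0.27), Cdh2 probe 2 (38.3%, -0.24) and Chl1 probe 2 (36.7%, -0.19). Cdh2 probe 1 (45%, -0.47) lies above the median of its range (-0.63). In the other comparisons with unstimulated neurons the correlation over all probes was -0.0532 (18/1 2 hr), -0.35 (90/5 2 hr) and 0.19 (90/5 5 hr), and over the members it was -0.465, -0.696 and -0.231, also without Cntn1 where it was saturated. With the trend removed, 3 of 10 member probes and 36.6% of all probes were called at 18/1 5 hr, Ncam1 probe 2 (-0.92), Chl1 probe 1 (1.43) and Cntn2 probe 1 (-1.22).

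**Figure D4:**
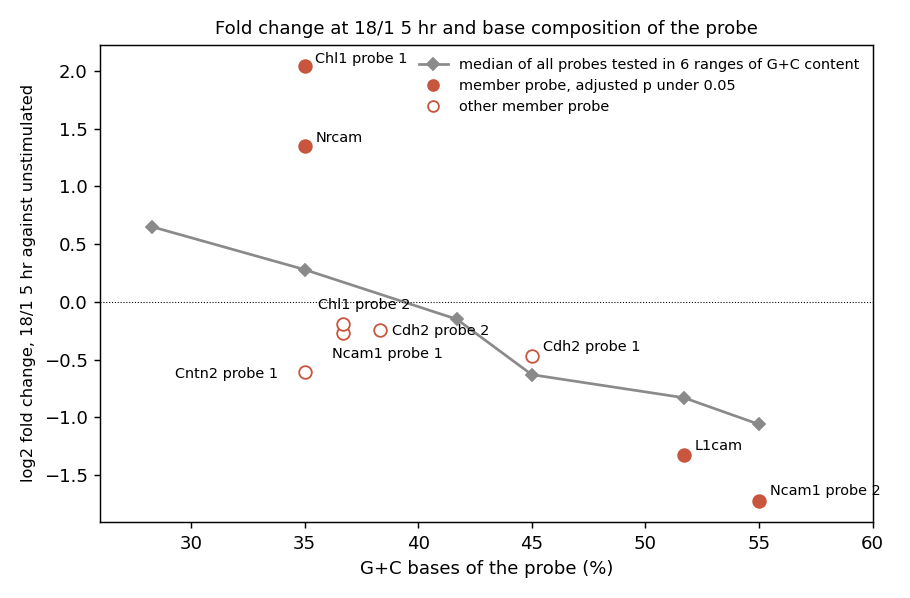
Log2 fold change at 18/1 5 hr against unstimulated neurons (y axis) and share of G and C bases of the probe in percent (x axis) for the member probes, over the medians of all probes tested in 6 ranges of base composition, with filled points for a limma adjusted p under 0.05. The medians go from 0.65 in the range under 35% to -1.06 at 55% or more, and Cntn1, saturated at 18/1 5 hr, is not drawn.

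Genes that work with these molecules were followed as a list of 64, of which 61 have a probe of that name and 33 passed the filter. At 18/1 5 hr limma called 4 higher and 6 lower, 30.3% of those tested against 45.1% of all probes, with a median of -0.24. Among 7 linkers to ankyrin, spectrin and actin 2 rose and 2 fell. Sdcbp, which encodes syntenin, a binder of membrane protein tails, rose by 1.4 (SE 0.40, adjusted p = 0.00695) with 1 of 4 spots saturated, and Epb4.1l3, a band 4.1 protein of axonal membranes, fell by 1.99 (SE 0.52, adjusted p = 0.00404), each in 4 of 4 samples. None of 4 cadherin-bound catenins, of 4 other contactins and their partners and of 1 sheddase (Adam10) was called by limma, and of 7 signalling and trafficking partners 1 (Numb) was lower. At an unadjusted p under 0.05 the count was 13 of 33, and 52.6% of all probes met that limit.

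Of 10 other neuronal adhesion genes 2 rose and 3 fell at 18/1 5 hr. Mcam, an immunoglobulin-type adhesion molecule, rose by 1.53 (SE 0.41, adjusted p = 0.0045) with 3 of 4 spots saturated, and Cdh4, R-cadherin, rose by 1.27 (SE 0.33, adjusted p = 0.00357). Cadm3 fell by 1.67 (SE 0.33, adjusted p = 0.000485) and Cadm4 by 1.18 (SE 0.36, adjusted p = 0.0104), both members of the SynCAM family that joins axons to each other and to Schwann cells. The probes of Mcam and Cdh4 hold 35% G and C, and those of the genes that fell, Cadm1, Cadm3 and Cadm4, 38.3%, 45% and 55%. Of the other called partner genes, Sdcbp (38.3%) and Rdx (40%) rose, and Ank1 (36.7%), Numb (40%) and Epb4.1l3 (45%) fell. Direction and base composition thus did not go together in all of them.

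At 90/5 2 hr 2 of the 33 were called, 6.06% against 6.18% of all probes, Mcam at 1.81 (SE 0.41, adjusted p = 0.00933) and Epb4.1l3 at -2.39 (SE 0.52, adjusted p = 0.00763), with 3 of 4 Mcam spots saturated. Between the conditions of slide 2 the count was 2 of 33, 6.06% against 13.7% of all probes. Ank1 was higher at 90/5 2 hr than at 18/1 5 hr, by 0.91 (SE 0.29, adjusted p = 0.0409), and Sdcbp lower, by -1.22 (SE 0.40, adjusted p = 0.0453), with the same saturated spot. At 18/1 2 hr limma called 0 of 33, with 0 at an unadjusted p under 0.05 (0.837% of all probes), and at 90/5 5 hr 0 of 33, with 2 (3.36%).

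**Figure D5:**
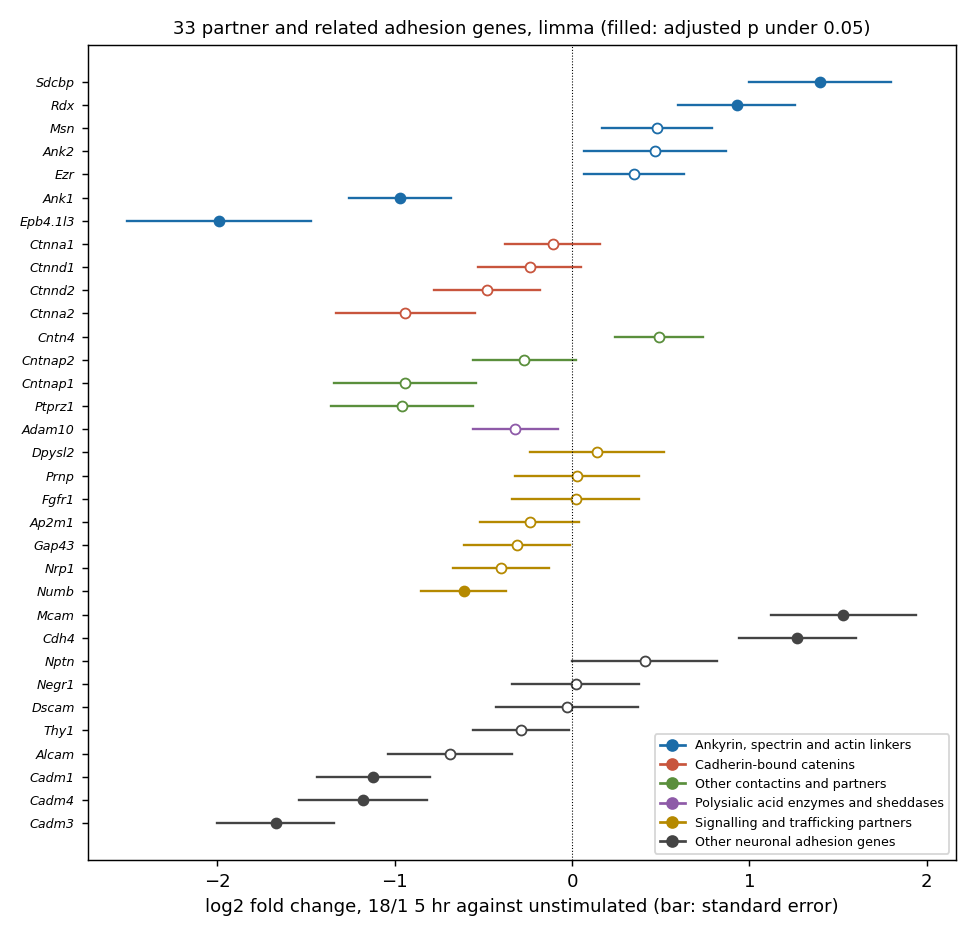
Log2 fold change at 18/1 5 hr against unstimulated neurons (x axis) of the 33 partner and related adhesion genes that could be tested, in groups by role, with the standard error from limma as a bar. Filled points have an adjusted p under 0.05, 4 higher and 6 lower, from 1.53 for Mcam to -1.99 for Epb4.1l3.

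The genes whose signals followed the members of the L1 family most closely over the 20 samples, among 10188 genes and by Pearson's r, were Vac14 (0.938) and Usp24 (0.935) for L1cam, Ptpra (0.95), Tdrd7 (0.949) and Gpr85 (0.948) for Chl1 probe 1, 3110043O21Rik (0.916), Nutf2 (0.913) and Vma21 (0.912) for Nrcam, and Rbm42 (0.904), 1700019N12Rik (0.876) and Rbfox3 (0.866) for Nfasc. The samples share slides, and signals on arrays 5, 6 and 8 share the negative trend with base composition. Over the 12 samples of slides 1 and 3 alone the closest gene was BC018507 for L1cam (0.979), Ric8 for Chl1 probe 1 (0.958), Ppp1r7 for Nrcam (0.919) and Poldip3 for Nfasc (0.965). Only Ptpra, with 0.896 for Chl1 probe 1, is among the closest 3 in both sets of samples, and no p-value is given for this description.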

How the data were processed

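The deposited files are the scanner output of Feature Extraction (version 10.7.1.1 for slide 1 and 10.7.3.1 for slides 2 and 3) and hold, per the file headers, the intensity of each of 44397 spots in each colour, as mean foreground and median background, not normalized. Gene names are those of the annotation in 1 of the array files, used for all arrays, and 8333 spots have another name in the earlier annotation. Of the columns, 6 per colour were used and 35 more per colour were not.

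With limma 3.58.1 in R 4.3.3 (data.table, version 1.17.8), background was corrected by normexp with an offset of 50, arrays were normalized by loess with control spots at weight 0 and across arrays by Aquantile, spots of a probe were averaged, and each colour was 1 sample. A linear model of the 5 conditions, with the array as a random block (correlation 0.536, and 0.642 in the fit of probes passing in 1 condition), gave log2 fold changes, eBayes p-values and Benjamini-Hochberg adjustment over all probes tested, with 0.05 as threshold. A probe passed when foreground was at least 2 times background and the spot was not marked non-uniform, in all samples. What is called the methods' t-test is a simplified form of it, with unequal variances, on the signals above without the log, with p under 0.05 and a fixed fold of at least 1.4. The methods' own iterative normalization, their fold limit for each transcript and their correction among spots of 1 transcript were not applied. The code was tested on simulated data. Figures were drawn with matplotlib 3.10.9 in Python 3.11.15.

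Members and lists were chosen with earlier results of these data known. All member probes are named, the called partner genes with up to 3 largest rises and 3 largest falls per comparison with unstimulated neurons or within a slide, and for likeness the 3 genes with the highest r. Numb, Adam10, Rdx, Cadm1 and the called marker genes were named after their values were seen. Alternatives, given in the closing section, changed the background correction, normalization, filter, probe choice, block, weights, samples and test. The results of 1 gene are not reported here.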

Additional observations from a re-analysis of the deposited data

Results flagged for a closer look

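A sample lay far from the other 3 of its group in 5 of the 80 groups of member probe and condition, and chance gives about 1 in 20. The normalized log2 signal of L1cam at 18/1 5 hr was 8.96 in array 6 Cy5, with 8.83 as the nearest of the others. Ncam2 probe 3 at 90/5 2 hr was 6.49 in array 7 Cy5 (nearest 6.19), not well above background. Cdh2 probe 2 at 90/5 5 hr was 12.88 in replicate 3 (nearest 12.15). At 18/1 2 hr replicate 1 was the low sample for both probes of Cntn2, at 8.08 (nearest 8.63) for probe 1 and 7.19 (nearest 7.35) for probe 2.

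Effects of stimulation differed between patterns or times for 4 probes, each by limma's test of the difference itself, as log2 differences. Ncam1 probe 2 differed between patterns at 5 hr (1.64) and between times of 18/1 (-1.31). Nrcam did so by -1.4 and 1.56, and Chl1 probe 1 by -2.18 and 2.42. Cdh2 probe 1 differed between times of 90/5 (1.2). Each of these comparisons is between slides, and slide and condition cannot be told apart.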

How the results depend on the processing

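Counts are member probes called by limma, of 10, and were 4 at 18/1 5 hr, 3 between patterns at 5 hr, 3 between times of 18/1, 3 between 90/5 2 hr and 18/1 5 hr on slide 2, 1 between times of 90/5, and 0 at 18/1 2 hr, at 90/5 2 hr, at 90/5 5 hr and between patterns at 2 hr. No background subtraction, quantile normalization and leaving out spots marked as outliers of their probe, the last chosen after seeing the data, gave the same counts. Median centring gave 6, 6, 6, 5 and 0 for the first 5 comparisons (53.3%, 58.4%, 53.7%, 47.3% and 7.75% of all probes), each of the first 4 counts with Cntn1, for which saturation allows no fold, and changed none of the zeros. With it the share of called probes that were higher went from 32% to 8.23% at 18/1 5 hr, from 50.1% to 75.4% at 90/5 2 hr, from 71.4% to 100% at 90/5 5 hr, from 53.4% to 78.7% and from 66.7% to 93.1% between patterns at 2 hr and 5 hr, from 32.9% to 8.59% between times of 18/1 and from 79.7% to 99.6% on slide 2. Quantile normalization took that at 90/5 5 hr to 100% too. Other settings lowered it from the 71.4% of 7 called probes in the main fit. It was 36.4% of 272 without slide 2, 37% of 359 with the replicate block and 47.8% of 3030 with arrays weighted by quality. Removing the trend on base composition gave 3, 3, 4, 1 and 0 for the same 5 (36.6%, 35.7%, 37%, 9.87% and 4.9%).

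The filter in 1 condition, with 14 member probes, gave 5, 4, 4, 2 and 0 (37.4%, 38.3%, 36.8%, 8.94% and 7.05% of all probes). The first 3 of these counts include Cntn2 probe 2, the second by its test against 90/5 5 hr, which the text does not use. No filter, with 16 member probes, gave 5, 4, 3, 0 and 0 (25.5%, 26.7%, 25%, 6.27% and 2.68%), and ignoring the non-uniform mark, chosen after seeing the data, 4, 3, 3, 2 and 1 (41.7%, 42.4%, 41.2%, 11.2% and 7.54%). Leaving out saturated probes gave 2, 1, 1, 0 and 0 (46.5%, 47.6%, 46%, 13.6% and 5.97%), by construction without Nrcam, Chl1 probe 1 and Cntn1. The brightest probe of each gene alone gave 3, 2, 2, 2 and 1 (44.6%, 45.6%, 44.2%, 12.9% and 9.11%). Fitting only the conditions compared gave 4, 3, 3, 0 and 0 (41.5%, 33.9%, 40.2%, 0% and 2.87%). Without the array as a block the counts were 5, 5, 4, 3 and 1 (59.9%, 60.9%, 60%, 34.2% and 22.2%), with 3 at 90/5 2 hr (22% of all probes) and 2 between patterns at 2 hr (17.2%). With arrays weighted by quality they were 5, 4, 3, 0 and 2 (53.8%, 55.4%, 53.1%, 6.3% and 19.8%), with 5 at 18/1 2 hr, 1 at 90/5 2 hr and 3 at 90/5 5 hr, where 14.6%, 16.8% and 25.4% of all probes were called. The methods' t-test gave 3, 3, 2, 2 and 2 (49.7%, 45.7%, 48.7%, 16.9% and 17% of all probes), with 0 at 18/1 2 hr, 3 at 90/5 2 hr, 1 at 90/5 5 hr and 2 between patterns at 2 hr, and after Benjamini-Hochberg adjustment 3, 0, 2, 0 and 0 with 0 elsewhere. The causes were not tested.

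Fits without 1 sample or 1 array at a time (30 in all, with the samples left in a condition assumed to vary like the others) gave 3 to 5 at 18/1 5 hr, 3 to 4 between patterns at 5 hr, 3 to 4 between times of 18/1, 0 to 5 on slide 2, 0 to 1 between times of 90/5, 0 to 0 at 18/1 2 hr, 0 to 3 at 90/5 2 hr, 0 to 0 at 90/5 5 hr and 0 to 1 between patterns at 2 hr. Leaving out slide 2 gave 0 at 18/1 2 hr (0.0502% of all probes) and 0 at 90/5 5 hr (2.28%, against 0.0586% in the main fit). The replicate block also gave 0 in both comparisons, with 0.0586% and 3% of all probes called. It was possible for these comparisons only because the labels do not pair colour and replicate number on slide 2. Outside slide 2 deviations of same-numbered samples correlated at -0.548 to 0.576 (median 0.155) over 12 pairs, 7 of them over 0.1, and those of samples with different numbers at -0.502 to 0.461 (median -0.00887) over 36 pairs, 13 of them over 0.1. The labels do not say that equal numbers share anything, and the main fit did not pair them.

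Of 618 values of called member probes under these alternatives 541 kept direction and call, 77 kept direction and lost the call and 0 turned. Of 3418 values of probes not called, 3175 kept direction and stayed uncalled, 73 gained a call and 170 changed sign without a call. Signal over background limits Ncam2, which was dim, and saturation limits Cntn1, Nrcam and Chl1 probe 1 on slide 2.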
